A study of Homo sapiens with 12 samples.

Results

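The response of A375 cells to vemurafenib was read from 6 of the 12 arrays of the series, chosen by their sample titles: 3 arrays of A375 cells with DMSO and 3 arrays of A375 cells with vemurafenib. A375 is an established human melanoma cell line, written A375p in the source label, and the labels give BRAF V600E for every array of the series, controls included. Vemurafenib, a kinase inhibitor made against mutant BRAF, was given at 1 µM for 72 h with renewal every 24 h, and the control cells received the same volume of DMSO, its solvent. That protocol is attached to all 12 samples but mentions A375p only, and no separate dose or duration was found for the comparison line. The other 6 arrays, of the melanoma line A2058 labelled with DMSO or vemurafenib, entered the fit for the shared estimate of the spread and served as the comparison line. RNA was measured on an Affymetrix gene array, and the deposited values are log2 expression values, so a difference of 1 is a 2-fold change. The labels do not say whether the 3 arrays of a group came from separate cultures, so the p-values measure the spread between these arrays, which may be technical. Each result concerns 1 cell line.

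In cells with BRAF V600E the mutant kinase signals without its usual upstream input through the kinases MEK and ERK. ERK output is read from genes that ERK activity induces: feedback inhibitors such as the dual-specificity phosphatases and Sprouty proteins, PEA3 transcription factors such as ETV4, and cyclin D1, which drives cells out of G1. Interferon signalling is a separate pathway, in which receptors activate JAK kinases, STAT proteins and the factor IRF9, and these switch on antiviral genes and genes of antigen presentation. Hypoxia-inducible factors switch on glycolytic enzymes and secreted regulators of blood vessels and of metabolism.

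Each of 18404 genes was tested in limma; called genes are those with an adjusted p under 0.05. In A375, 3265 genes were called up (17.7%) and 3551 down (19.3%), and the median change over all genes was 0.004. Of these, 356 rose at least 2-fold (1.93%) and 417 fell at least 2-fold (2.27%). For all 773 of these larger changes (4.2% of genes) the 3 vemurafenib arrays lay outside the range of the 3 DMSO arrays. Over all genes the 3 vemurafenib arrays lay above the 3 DMSO arrays for 21% and below them for 22.6%. Changes below are vemurafenib minus DMSO on the log2 scale ± the standard error of the fit, with n = 3 arrays per group. Levels of different genes are not set against each other, since probe sets differ in brightness.

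Vemurafenib replicate 1 stood apart from its group. Its correlation with replicates 2 and 3 across genes was 0.9941 and 0.9939, against 0.9982 between those arrays and 0.9986 to 0.9989 among the DMSO arrays. Its quartiles over all probe sets lay closer together than those of the other arrays, with the highest lower quartile (4.411) and the lowest upper quartile (7.401) of all 12. Without it, 7785 genes were called (42.3%), 3789 up (20.6%) and 3996 down (21.7%). Of the calls made with all arrays, 6452 stood in the same direction without it, 364 were lost and none turned, and 1333 genes were called only without it. All 773 changes of at least 2-fold were called in the same direction without that array. Each count of a gene list below is given with and without it. These counts stand against the shares of all genes, 17.7% up and 19.3% down, or 20.6% and 21.7% without it.

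Several feedback inhibitors and PEA3 factors downstream of ERK fell. SPRY4, a Sprouty inhibitor of receptor and RAS signalling, read 10.15, 10.16 and 10.19 in the DMSO arrays and 6.19, 6.30 and 6.29 in the vemurafenib arrays. Its change was -3.91 ± 0.060 (adjusted p = 9.97e-14). DUSP6, a phosphatase that switches ERK off, read 10.19, 10.26 and 10.19 against 8.48, 8.54 and 8.56. The groups of neither gene overlapped. Among 7 Sprouty and SPRED genes, 4 fell and 1 rose, with a median of -0.93: SPRY1 fell by 2.06, SPRY2 by 1.32 and SPRED2 by 0.93, while SPRED1 rose by 0.18. Without vemurafenib replicate 1, 4 fell and 2 rose. Among 10 MAPK phosphatases, 5 fell and 2 rose (6 and 2 without that array). DUSP5 (-1.35) and DUSP10 (-0.97) fell with DUSP6 (-1.69). DUSP16, a phosphatase directed mainly at JNK and p38, rose from 6.68, 6.68 and 6.85 to 8.03, 7.99 and 7.97. DUSP1, the other phosphatase that rose, changed less than 2-fold and lost its call under 4 alternatives of the analysis.

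Of 31 transcription factors and early genes that follow ERK, 16 fell and 5 rose, with a median of -0.23, and 21 fell and 4 rose without vemurafenib replicate 1. ETV4, a PEA3 factor, read 9.63, 9.67 and 9.51 in DMSO and 6.33, 6.34 and 6.39 in vemurafenib, a 9.5-fold fall (adjusted p = 3.11e-12). The early response factor EGR1 (-2.32 ± 0.065), the stress-induced IER3 (-1.88) and the PEA3 factor ETV5 (-1.33) fell too. JUN, an AP-1 subunit, went the other way: its DMSO arrays read 5.41, 5.52 and 5.63 and its vemurafenib arrays 8.76, 8.79 and 8.87, a change of 3.29 ± 0.069 (adjusted p = 1.17e-12). ETS1 (1.66) and ATF3 (0.75) rose too.

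Genes of the cascade itself moved less. Of 18 RAS, RAF, MEK and ERK genes, 8 fell and 6 rose, with a median of -0.022 (8 and 7 without vemurafenib replicate 1). The ERK gene MAPK3 fell by 0.79 and the MEK gene MAP2K1 by 0.74, and the RAS GTPase activating protein RASA2 fell by 1.13; the scaffold genes KSR2 (0.49) and KSR1 (0.38) rose. Of 37 receptor tyrosine kinases, 15 fell and 8 rose (17 and 8 without that array). The growth factor receptors IGF1R (-1.44), FGFR1 (-1.24) and MET (-1.07) fell. MERTK, a receptor for the ligands GAS6 and PROS1, rose from 4.46, 4.43 and 4.50 to 6.27, 6.80 and 6.73, and its ligand gene PROS1 rose by 1.27. TGFA, a ligand of EGFR, fell from 10.68, 10.68 and 10.72 to 7.18, 7.53 and 7.59 (-3.26 ± 0.11).

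**Figure D1:**
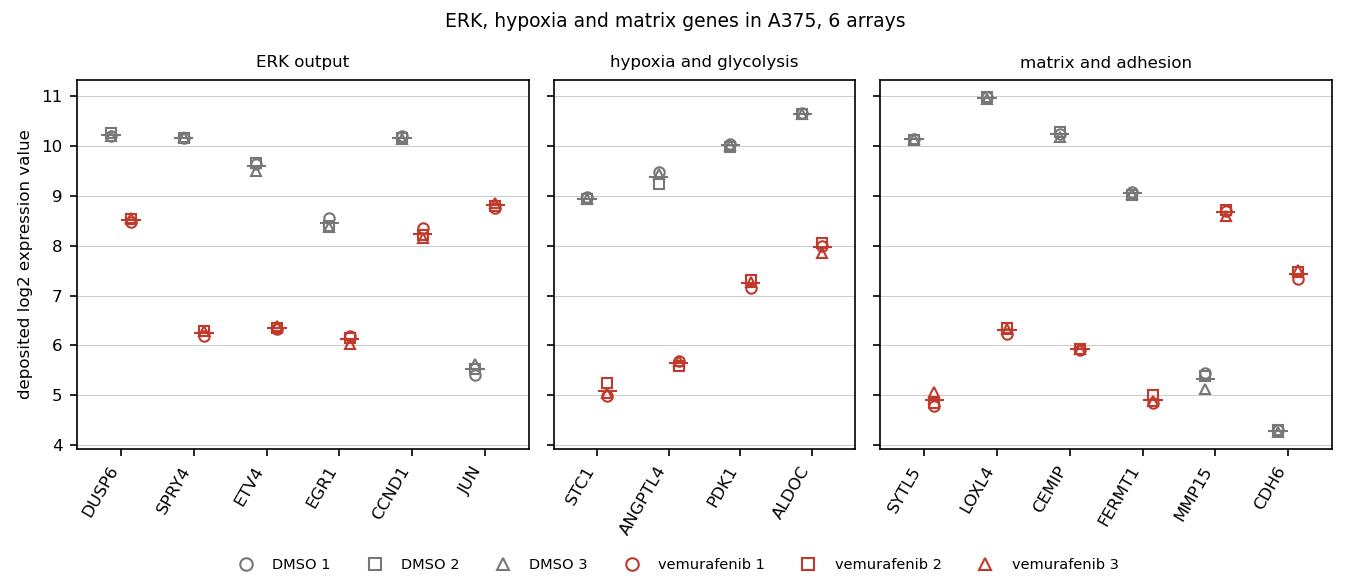
Deposited log2 values (vertical axis) of ERK output, hypoxia and matrix genes in the 6 A375 arrays; grey marks are DMSO and red marks vemurafenib arrays, marker shapes give the replicate and bars the group mean. In each gene the vemurafenib arrays lie clear of the DMSO arrays; JUN, MMP15 and CDH6 are higher and the others lower. Heights of different genes are not comparable.

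Interferon-stimulated genes were prominent among the largest rises, beside the vitamin B12 binder TCN1, the fourth in rank, ANGPTL7 (4.44), CD36 (4.27) and TAC1 (4.23). Of 49 antiviral effectors, 45 rose and none fell, 35 of them at least 2-fold, with a median change of 2.16. The counts without vemurafenib replicate 1 were also 45 and none. The 4 genes not called were GBP2 (-0.17), GBP5 (0.08), GBP3 (0.14) and ISG20 (0.09), of which the GBP genes code for guanylate-binding proteins. IFIT1, whose product binds viral RNA, read 4.64, 4.65 and 4.56 in DMSO and 10.62, 10.61 and 10.62 in vemurafenib, a 64.1-fold rise (adjusted p = 2.53e-15). XAF1, a proapoptotic interferon target, rose from 4.79, 4.78 and 4.73 to 9.92, 9.95 and 9.98. OAS2, an enzyme that makes 2-5A after binding double-stranded RNA, rose from 5.93, 5.88 and 5.90 to 10.81, 10.94 and 10.94. The vemurafenib arrays of these 3 genes differed from each other by far less than from the DMSO arrays. IFI44L (4.88), MX1, a GTPase that blocks viruses (4.55), RSAD2 (4.34) and OAS1 (4.12) stood among the 15 largest rises as well.

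The ubiquitin-like modifier ISG15 and the enzymes around it rose in the same way. Of 19 genes of ISG15 conjugation and of the PARP and TRIM families, 18 rose, 16 at least 2-fold, with a median of 1.69, and none fell; the counts without vemurafenib replicate 1 were the same. The ligase gene HERC6 rose by 3.97, PARP9 by 3.41 and USP18, which removes ISG15 and dampens receptor signalling, by 3.27. TRIM22 read 4.39, 4.34 and 4.33 in DMSO and 6.70, 7.82 and 7.87 in vemurafenib; replicate 1 was the lowest of the treated arrays and the change was 3.49 without it against 3.11 ± 0.22 with it. TRIM69 was not called (0.09). Another modifier gene, UBD, which interferon gamma and TNF induce, rose from 6.75, 6.46 and 6.09 to 10.34, 10.71 and 10.50.

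Promoters were searched for the letters of the interferon-stimulated response element (GAAA, then 2 bases of any kind, then GAAA) on either strand. The window was the 250 bases before each RefSeq start (build GRCh38.p14). The lists were written as interferon-related genes, and all measured members were searched, called or not. A high share in a list can thus follow from how the list was written. Of the 49 antiviral effectors, 37 had a promoter in the table and 21 of these held the motif (56.8%), as did 8 of 15 genes of the ISG15 list (53.3%) and 7 of 14 class I presentation genes (50%). These counts are of genes with a promoter, and a gene counted if the window before any of its listed starts held the motif. Genes with more starts thus had more windows. Among the sensors of nucleic acid, described next, 3 of 22 genes held it (13.6%), and over all measured genes 502 of 14230 (3.53%). It was found in 46 of 275 genes that rose at least 2-fold (16.7%) and in 14 of 325 that fell at least 2-fold (4.31%). Among the largest rises the motif stood before IFIT1, IFI44L, MX1 and RSAD2, and no match stood in this window before XAF1, OAS1 or SAMD9L. The promoters of IFIT1 (chr10:89392373-89392622, plus strand) and IFI44L (chr1:78620198-78620447, plus strand) are shown because each has 1 listed start and 2 matches, given in capitals, 5′ to 3′:
IFIT1: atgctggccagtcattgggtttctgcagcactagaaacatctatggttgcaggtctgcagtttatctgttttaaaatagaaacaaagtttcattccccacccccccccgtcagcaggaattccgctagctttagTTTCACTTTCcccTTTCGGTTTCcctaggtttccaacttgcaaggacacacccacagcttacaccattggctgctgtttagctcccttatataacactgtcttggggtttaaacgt
IFI44L: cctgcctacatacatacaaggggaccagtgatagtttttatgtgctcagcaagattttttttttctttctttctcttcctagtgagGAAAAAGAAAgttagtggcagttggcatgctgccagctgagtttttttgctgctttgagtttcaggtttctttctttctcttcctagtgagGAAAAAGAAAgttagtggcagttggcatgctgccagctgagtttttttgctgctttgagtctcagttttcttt
In IFIT1 both matches lie on the opposite strand, the nearer beginning 103 bases before the start. In IFI44L both lie on the gene's own strand, the nearer beginning 73 bases before the start. A match of letters is a description and no evidence of binding.

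Among 30 sensors of nucleic acid and their adaptors, 18 rose and 4 fell, with a median of 0.24 (17 and 4 without vemurafenib replicate 1). RIGI, a cytosolic sensor of viral RNA, read 6.18, 6.10 and 6.10 in DMSO and 9.97, 10.13 and 10.08 in vemurafenib (3.93 ± 0.049). Its relatives IFIH1 (2.96) and DHX58 (2.99) rose, as did the endosomal RNA receptor TLR3 (2.37) and the nucleotide hydrolase SAMHD1, from 7.16, 7.01 and 7.03 to 10.51, 10.73 and 10.71. TLR4, the receptor for bacterial lipopolysaccharide, fell by 2.77 and TLR6 by 1.02. CGAS, the cytosolic DNA sensor, was not called and its groups overlapped (4.32, 4.27 and 4.28 against 4.33, 4.33 and 4.27).

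The measured receptor and signalling genes changed less than the effectors. Of 30 genes of interferon receptors, JAK, STAT, IRF and SOCS families, 13 rose and 7 fell, with a median of 0.11 (15 and 7 without vemurafenib replicate 1). IRF9, the DNA-binding partner of the STAT complex, rose from 6.76, 6.71 and 6.68 to 8.80, 8.75 and 8.79. IRF7 rose by 1.03 ± 0.11 and IRF1 by 0.61. IFNGR2, a chain of the interferon gamma receptor, fell from 9.81, 9.84 and 9.82 to 8.45, 8.49 and 8.55, and the interferon lambda receptor chain IFNLR1 fell by 0.60. Of 21 listed interferon ligand genes, 16 were measured. None of these was called by limma in either direction, with or without that array, and their changes ran from -0.05 to 0.14. Their median level in A375 DMSO was 4.16, below the lower quartile of all probe sets in those arrays (4.373 to 4.393). Such low signals limit what can be seen. IFNB1 read 4.08, 4.05 and 4.09 in DMSO and 4.12, 4.04 and 4.05 in vemurafenib, and IFNL1 5.25, 5.28 and 5.19 against 5.40, 5.17 and 5.24, so the groups of both overlapped.

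**Figure D2:**
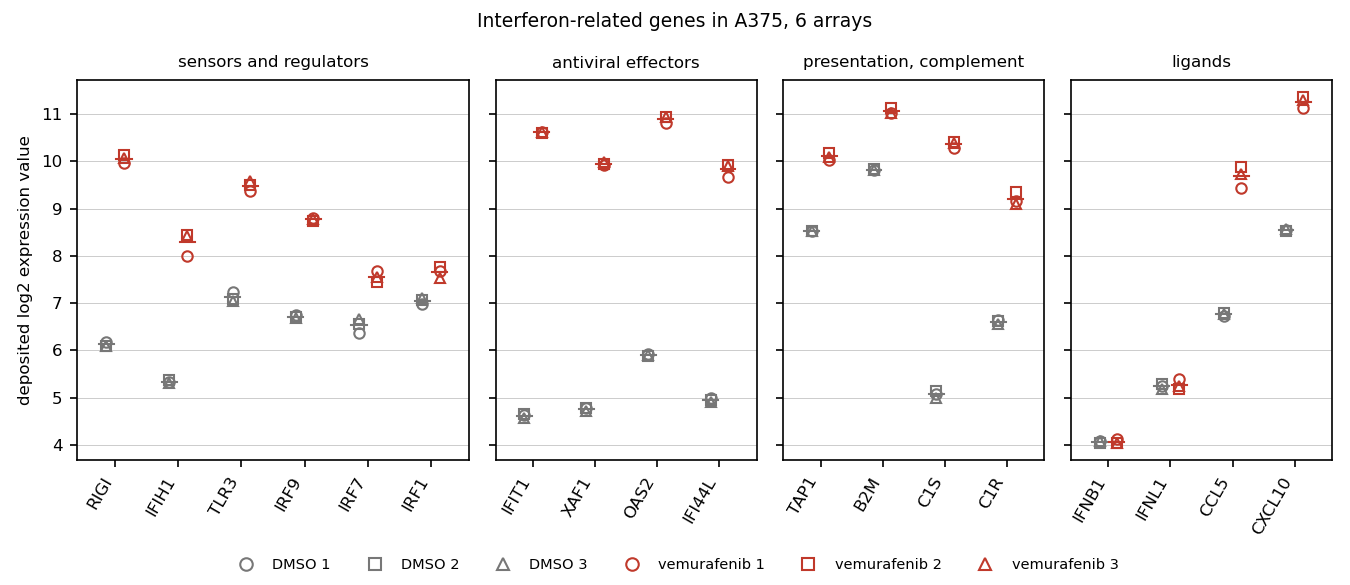
Deposited log2 values (vertical axis) of interferon-related genes in the 6 A375 arrays; grey marks are DMSO and red marks vemurafenib arrays, marker shapes give the replicate and bars the group mean. IFNB1 and IFNL1 overlap between the groups, while for the other genes all vemurafenib arrays lie above the DMSO arrays. Heights of different genes are not comparable.

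Genes of antigen presentation rose. Of 14 measured class I presentation genes, 13 rose and none fell, with a median of 0.91, also without vemurafenib replicate 1. TAP1, which carries peptides into the endoplasmic reticulum, read 8.52, 8.53 and 8.53 in DMSO and 10.03, 10.18 and 10.10 in vemurafenib. B2M, the invariant light chain, rose from 9.82, 9.83 and 9.82 to 11.03, 11.12 and 11.02. The chaperone CANX was not called (-0.08). Of 13 class II genes, 11 rose and none fell, with a median of 0.68 (10 without that array). HLA-DOA (1.65), the protease CTSS (1.60), HLA-DMB (1.45) and HLA-DMA (0.98) rose most. IFI30 (-0.02) and HLA-DQB1 (0.15) were not called. Probes of HLA genes can be shared within the family, so single HLA values are uncertain.

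Complement and secreted mediators changed in both directions. Of 29 complement genes, 9 rose and 2 fell, and 18 were not called (10 and 3 without vemurafenib replicate 1). The protease genes of the classical pathway rose: C1S from 5.07, 5.15 and 4.99 to 10.28, 10.41 and 10.39, and C1R from 6.63, 6.62 and 6.55 to 9.16, 9.35 and 9.09. CFI, which inactivates C3b and C4b, rose by 1.28, whereas CD55, a membrane inhibitor of complement, fell by 2.04 ± 0.054. Of 22 chemokines, 4 rose and 7 fell (the same without that array). The T cell attractants CCL5 (2.92), CXCL10 (2.71) and CXCL11 (1.78) and the monocyte attractant CCL2 (1.16) rose; CCL20 fell from 8.79, 8.77 and 8.81 to 5.44, 5.67 and 5.72 and CXCL1 fell by 0.94. Of 32 interleukin and cytokine genes, 7 rose and 10 fell (the same without that array). IL1A fell by 3.68 ± 0.20, LIF fell by 2.90, and IL24 rose by 2.37 and IL34, a ligand of CSF1R, by 1.86. Among 30 surface ligands of immune cells, 8 rose and 6 fell (9 and 6 without that array). These shares were 26.7% up and 20% down, against 17.7% and 19.3% of all genes. The checkpoint ligand PDCD1LG2 stood at 1.33, the B cell factor TNFSF13B at 2.36 and NT5E, which makes adenosine, at -3.85. Of 21 NF-kB genes, 9 fell and 6 rose (9 and 7 without that array). TRAF1 (-1.99), NFKB2 (-1.08) and TNFAIP3 (-0.80), all induced by NF-kB, fell.

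Cell cycle genes split by phase. Of 79 genes of mitosis and G2/M, 53 rose and 6 fell, none of them 2-fold, with a median of 0.33; without vemurafenib replicate 1, 59 rose and 5 fell. KIF20A, a kinesin of cytokinesis, read 9.20, 9.31 and 9.27 in DMSO and 10.09, 10.25 and 10.28 in vemurafenib. CKAP2 (0.86), DLGAP5 (0.75) and ASPM (0.73), which act at the spindle, rose, and the proliferation marker MKI67 rose by 0.36 ± 0.059. WEE1, the kinase that holds CDK1 inactive, fell from 7.72, 7.69 and 7.74 to 6.58, 6.82 and 6.85.

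DNA replication genes moved the opposite way. Of 55, 31 fell and 5 rose, with a median of -0.20 (28 and 11 without vemurafenib replicate 1). ORC1, a subunit of the origin recognition complex, read 7.40, 7.21 and 7.21 in DMSO and 6.51, 6.61 and 6.50 in vemurafenib; CDT1, which loads the helicase, fell by 0.72, as did the helicase subunit MCM6. POLA2 (0.30), GINS3 (0.28), PCNA (0.26) and TIMELESS (0.20) rose, the last losing its call under 8 alternatives. Both cell cycle medians differed between the treated arrays: against the DMSO mean, replicates 1, 2 and 3 had medians of -0.36, -0.14 and -0.19 for replication and 0.20, 0.39 and 0.38 for mitosis.

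Of 59 histone genes, most of which are transcribed in S phase, 29 fell and 6 rose (30 and 6 without vemurafenib replicate 1), with a median of -0.15. By class, 8 of 12 H4 genes, 5 of 8 H3 genes and 4 of 9 H1 genes fell. Of 14 H2A genes, 5 fell and 1 rose. The 16 H2B genes were mixed, with 7 falls, 4 rises and a median of -0.004. The linker histone H1-3 fell by 1.05 ± 0.16 and H4C6 from 9.71, 9.69 and 9.73 to 8.80, 8.93 and 8.97. H2BC12 (1.39) and H2BC21 (1.10) rose. Histone genes resemble each other closely, so values of single members are uncertain. In G1, CCND1, which codes for cyclin D1, fell from 10.20, 10.15 and 10.14 to 8.35, 8.21 and 8.15, and its kinase partner CDK6 fell by 1.52. Of 37 G1 genes, 14 fell and 5 rose (16 and 6 without that array), and the CDK inhibitor CDKN1A rose by 0.40. Of 34 genes of recombination, Fanconi and checkpoint function, 10 fell and 5 rose (9 and 9 without it), with CHEK1 and EXO1 each at -0.72 and FANCL at 0.75.

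**Figure D3:**
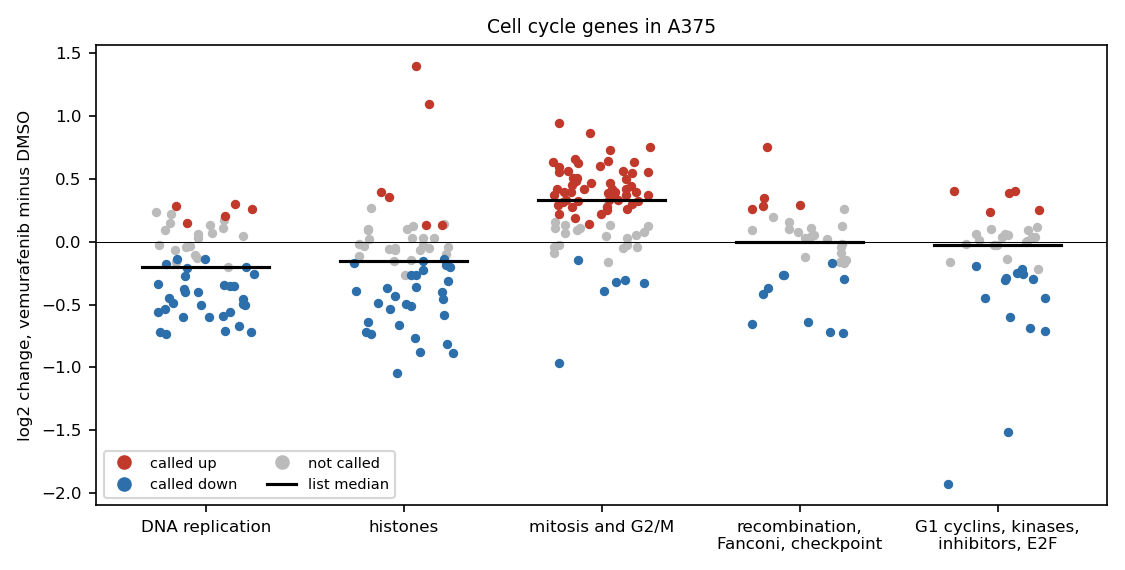
Log2 change of each gene in A375, vemurafenib minus DMSO (vertical axis), in 5 cell cycle lists; a point is a gene, red called up, blue called down and grey not called, and the black line is the list median. Mitotic genes centre on 0.33, replication genes on -0.20 and histone genes on -0.15.

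Oxygen-regulated and glycolytic genes fell. Of 40 hypoxia-inducible genes and HIF regulators, 34 fell and none rose, 14 of them at least 2-fold, with a median of -0.65; without vemurafenib replicate 1, 33 fell and 1 rose. STC1, a secreted hormone, read 8.97, 8.94 and 8.93 in DMSO and 4.98, 5.24 and 5.04 in vemurafenib. ANGPTL4, a secreted inhibitor of lipoprotein lipase, fell from 9.48, 9.24 and 9.44 to 5.69, 5.58 and 5.68. The lipid droplet protein gene HILPDA (-1.98) and NDRG1 (-1.79) fell too. HIF1A itself fell by 0.31 ± 0.069 (adjusted p = 0.00302), and EPAS1, which codes for HIF-2 alpha, was not called at 0.18 ± 0.074 (adjusted p = 0.0861) but was called up without that array (0.23, adjusted p = 0.024). In the list of 30 glycolytic enzymes and glucose carriers, 23 fell and 3 rose, with a median of -0.61, and the counts were the same without it; 2 of its genes, PFKFB3 and PFKFB4, stand in both lists. PDK1, a kinase that closes the entry of pyruvate into mitochondria, fell from 10.05, 9.98 and 10.03 to 7.15, 7.32 and 7.27. ALDOC (-2.68), ENO2 (-1.97) and the glucose transporter SLC2A3 (-1.45) fell, and HKDC1, a hexokinase, rose by 1.18. The letters ACGTG, the core of the hypoxia response element, were searched on either strand in the same windows. They stood before 15 of 31 hypoxia list genes with a promoter (48.4%) and 16 of 27 of the glycolysis list (59.3%). Over all measured genes with a promoter the share was 25.7%. As in the interferon lists, a high share in a list can follow from how the list was written. The share was 32% among genes that fell at least 2-fold and 28.7% among those that rose at least 2-fold.

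Mitochondrial genes changed little by comparison. Of 77 respiratory chain subunits, 16 rose and 8 fell, none 2-fold, with a median of 0.057 (24 and 8 without vemurafenib replicate 1). Of 33 genes of the TCA cycle and its regulators, 9 fell and 5 rose (10 and 8 without it). TFB1M, a mitochondrial ribosomal RNA methyltransferase, fell from 8.51, 8.60 and 8.55 to 5.84, 5.97 and 5.89. Of 46 fatty acid genes, 24 fell and 8 rose (23 and 9 without it). CD36, a fatty acid receptor, rose from 4.18, 4.24 and 4.15 to 8.03, 8.66 and 8.69 and the acyl-CoA synthetase ACSL1 by 1.96, while the acetyl-CoA synthetase ACSS2 (-2.06), the droplet coat PLIN2 (-1.95) and the nuclear receptor PPARG (-1.50) fell. Of 27 cholesterol genes, 11 fell and 6 rose (12 and 7 without it), with the synthesis enzymes DHCR7 at -1.45 and CYP51A1 at -1.22 opposite to HMGCS1 at 0.67.

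In protein synthesis and turnover the lists were mixed. Of 38 genes of amino acid transport and ATF4 targets, 19 fell and 12 rose (19 and 11 without vemurafenib replicate 1); the glutamate transporter SLC1A1 fell by 2.79 and the neutral amino acid transporter SLC7A8 rose by 2.17 ± 0.051. Of 49 ribosome biogenesis genes, 21 fell and 9 rose (22 and 9 without it), with NOB1 at -1.17. Of 19 tRNA synthetases, 7 fell and 6 rose (6 and 6 without it); WARS1, which interferon gamma induces, rose most, from 10.10, 10.13 and 10.11 to 10.94, 11.04 and 11.00. Of 53 lysosomal and autophagy genes, 30 rose and 5 fell, with a median of 0.19 (35 and 5 without it). The collagen-degrading protease gene CTSK rose by 3.18. Among 25 cytosolic chaperones, 10 rose and 6 fell (10 and 4 without it), with the small heat shock protein gene HSPB8 at 2.80 and CRYAB at 1.38.

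The labelled cell type was checked against 10 measured melanocyte lineage markers, of which 4 rose and 2 fell, with or without vemurafenib replicate 1. SOX10, the lineage factor of neural crest cells, read 9.48, 9.49 and 9.60 in DMSO and 9.37, 9.43 and 9.33 in vemurafenib, and the same probe set read 9.17 to 9.23 in A2058 with DMSO. Its change of -0.15 was called (adjusted p = 0.0172), but lost the call under 6 alternatives of the analysis. MITF, the master regulator of melanocytes, rose from 8.29, 8.40 and 8.34 to 9.07, 9.05 and 9.11. The pigment genes were low in A375 on the same probe sets: TYR read 4.49 to 4.61 in A375 DMSO against 10.83 to 11.09 in A2058 DMSO, and PMEL 4.92 to 5.03 against 8.40 to 8.52. TYR (0.001), PMEL (0.078) and MLANA (0.10) were not called in A375. The pigment gene TYRP1 was called up (0.38 ± 0.13), with DMSO arrays at 4.56, 5.01 and 5.17. It lost the call under 14 of 22 alternatives, the fit without vemurafenib replicate 1 among them. GPM6B, not called with all arrays (0.19), was called up without that array. S100B (1.01) and the lineage factor PAX3 (0.17) rose and S100A1 (-0.67) fell; PAX3 lost its call under 5 alternatives. Of 32 melanin and melanosome genes, 7 fell and 6 rose, with a median of 0.004 (9 and 7 without vemurafenib replicate 1). These shares, 21.9% down and 18.8% up, lay near those of all genes (19.3% and 17.7%). LYST, a regulator of lysosome size, rose by 2.03 and GPNMB by 1.38. SYTL5, a Rab27 effector of vesicle transport, had the largest fall of all genes, from 10.14, 10.11 and 10.14 to 4.78, 4.85 and 5.07.

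Of 33 melanocyte and neural crest transcription factors, 13 rose and 12 fell (13 and 15 without vemurafenib replicate 1). The inhibitor of differentiation ID2 (2.57), ZEB2 (2.30), FOXD3 (1.69) and SNAI2 (1.63) rose, while LEF1 (-2.73), PRRX1 (-1.89), NFIB (-1.88) and TFAP2C (-1.61) fell. The list of the undifferentiated, invasive melanoma state was divided as well, with 13 rises and 15 falls among 34 (13 and 14 without it). NGFR, a neurotrophin receptor that marks neural crest cells, rose from 6.63, 6.61 and 6.53 to 9.82, 9.82 and 9.95, and MMP1, a collagenase, from 5.97, 6.01 and 5.87 to 7.82, 8.15 and 8.11. IGFBP3 (-3.39), IGFBP5 (-2.90) and WNT5A (-1.09) fell. Markers of other cell types were called by limma in 6 of 12 fibroblast genes (4 up, with LUM at 2.15) and 2 of 13 blood and immune genes. They were called in 4 of 11 epithelial genes (all down, with KRT18 at -1.79) and none of 10 endothelial genes. Without that array these counts were 6, 2, 7 and 1. Over all genes 37% were called in either direction, and 42.3% without that array. The called immune genes were CD68, a lysosomal protein of macrophages, which rose by 0.92, and the lysozyme gene LYZ, which fell by 1.27; PTPRC read 4.11 to 4.21 in DMSO and 4.15 to 4.19 in vemurafenib. The summed log2 levels per array ran from 59.12 to 59.73 in DMSO and 61.13 to 62.1 in vemurafenib for the fibroblast list, 62.35 to 62.63 and 58.35 to 60.8 for the epithelial list, 70.03 to 70.76 and 69.97 to 70.99 for the immune list and 49.31 to 49.77 and 49.16 to 49.82 for the endothelial list. The part of these markers in the results was not tested, and fewer cells of a type and less RNA per cell cannot be told apart.

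Matrix and adhesion genes held several of the largest changes in both directions. LOXL4, a lysyl oxidase that crosslinks collagen and elastin, fell from 10.99, 10.98 and 10.95 to 6.23, 6.35 and 6.34, a 25.4-fold fall. Of 20 genes of collagen modification, 7 fell and 3 rose (7 and 5 without vemurafenib replicate 1). CEMIP, which depolymerizes hyaluronan, fell from 10.24, 10.29 and 10.19 to 5.90, 5.93 and 5.92, and HAPLN1, which links hyaluronan to proteoglycans, from 10.65, 10.59 and 10.70 to 6.99, 7.02 and 6.96. Of 37 hyaluronan and proteoglycan genes, 12 rose and 7 fell (13 and 7 without it); the leucine-rich proteoglycans PRELP (3.45) and LUM (2.15) and the large proteoglycan VCAN (1.77) rose.

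Integrins and their activators fell more often than they rose, with 11 falls and 5 rises among 30 (13 and 5 without vemurafenib replicate 1). FERMT1, a kindlin that activates integrins, read 9.09, 9.03 and 9.04 in DMSO and 4.85, 5.01 and 4.88 in vemurafenib. The integrin subunits ITGA9 (-2.57), ITGA3 (-2.49) and ITGB3 (-2.26) fell, and the collagen receptor subunit ITGA11 rose by 1.94. Of 85 cadherins, protocadherins and other adhesion molecules, 33 rose and 7 fell (34 and 8 without it), led by CDH6, from 4.31, 4.30 and 4.26 to 7.33, 7.47 and 7.51, and by ALCAM at 2.13. Of 42 matrix proteases and inhibitors, 20 rose and 8 fell (the same without it). MMP15, a membrane-bound metalloproteinase, rose from 5.45, 5.39 and 5.13 to 8.70, 8.71 and 8.60, whereas MMP9 (-1.47) and PLAUR, the urokinase receptor (-1.13), fell.

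Of 53 collagen and laminin genes, 17 rose and 7 fell (15 and 10 without vemurafenib replicate 1). COL5A2 rose by 2.29, and the basement membrane chains COL4A1 (-0.94) and COL4A2 (-0.89) fell. Its median differed between the treated arrays, at 0.25, -0.020 and 0.027 in replicates 1, 2 and 3. Of 44 matricellular glycoproteins, 11 rose and 13 fell (12 and 13 without it): CCN3 (3.67) and THBS1 (1.86) rose and TINAGL1 fell from 10.58, 10.51 and 10.57 to 6.22, 6.13 and 5.91. Of 44 actin genes and SRF and YAP targets, 23 fell and 7 rose (24 and 7 without it), with the actin crosslinker ACTN1 at -1.63 and the myosin MYH10 at -1.06, while the tropomyosin TPM1 rose by 0.96.

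Several developmental signalling families, the serpins and the S100 genes had more falls than rises, against 19.3% of all genes down and 17.7% up. Of 49 TGF-beta and BMP genes, 23 fell and 11 rose (22 and 11 without vemurafenib replicate 1); INHBA, the activin A subunit, fell from 10.96, 10.98 and 11.01 to 6.94, 6.84 and 6.79, its antagonist FST fell by 2.14 and SMAD3 by 1.21. Of 60 WNT pathway genes, 15 fell (25%) and 4 rose (19 and 5 without it). SFRP1 (-2.17), FZD7 (-1.40) and TCF7L2 (-1.39) fell, and the WNT antagonist DKK1 rose from 6.52, 6.27 and 6.33 to 8.16, 8.44 and 8.55. Of 29 Notch genes, 11 fell and 3 rose (17 and 2 without it), with HEY2 at -1.70 and the ligand JAG1 at -0.95. Of 49 guidance genes, 14 fell and 9 rose (17 and 9 without it), with SEMA3C at 2.38 and SEMA3A at -1.28. Of 31 serpins, 8 fell (25.8%) and none rose (9 and 1 without it), led by SERPINA1, the inhibitor of neutrophil elastase, at -2.83. Of 20 S100 genes, 7 fell and 1, S100B, rose (8 and 1 without it).

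Genes of cell death and stress moved in both directions. Of 21 BCL2 family genes, 5 rose and 5 fell (5 and 8 without vemurafenib replicate 1). That was 23.8% in each direction, near the 17.7% up and 19.3% down of all genes. The proapoptotic BMF rose from 6.12, 6.06 and 6.04 to 7.47, 7.49 and 7.37, and the proapoptotic PMAIP1 fell by 1.09 and the mitophagy receptor gene BNIP3 by 1.78. BCL2L11, which codes for BIM, was not called (0.09 ± 0.064, adjusted p = 0.333), although its vemurafenib arrays lay just above its DMSO arrays (5.50 to 5.52 against 5.40 to 5.45). Of 33 genes of the p53 list, 18 rose and 7 fell, with a median of 0.25 (19 and 7 without it); TRIM22, given above, TP53INP1 (1.26) and TIGAR (0.87) rose most, and the death receptor TNFRSF10A fell by 1.32. Of 28 FOXO factors and targets, 6 rose and 11 fell (the same without it): SESN3 rose by 2.45 and the muscle ubiquitin ligase FBXO32 (-2.47) and the pseudokinase TRIB2 (-2.60) fell.

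The remaining lists stand beside 17.7% of all genes up and 19.3% down. Of 32 growth factor ligands, 7 rose and 11 fell (7 and 14 without vemurafenib replicate 1). Of 28 caspases and death receptors, 10 rose and 5 fell (11 and 5 without it). Rises of the ligands (21.9%) and falls of the caspase list (17.9%) lay near the shares of all genes. Of 26 chaperones of the endoplasmic reticulum and genes of the unfolded protein response, 10 rose and 2 fell (12 and 2 without it). Of 43 ABC transporters, 12 rose and 6 fell (11 and 6 without it), and of 21 RGS genes 3 and 7 (2 and 7). Of 82 potassium channels, 5 rose and 7 fell (5 and 11 without it), and of 27 HOX genes 1 and 6 (1 and 10). Falls of HOX genes (22.2%) lay near the share of all genes. Of 340 olfactory receptor genes, 1 rose and 6 fell (2 and 10 without vemurafenib replicate 1), with a median of -0.003. Of 176 small nucleolar RNAs, 6 rose and 11 fell (11 and 16 without it). Of 439 C2H2 zinc finger genes, 119 rose (27.1%) and 45 fell, with a median of 0.058 (158 and 53 without it).

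**Figure D4:**
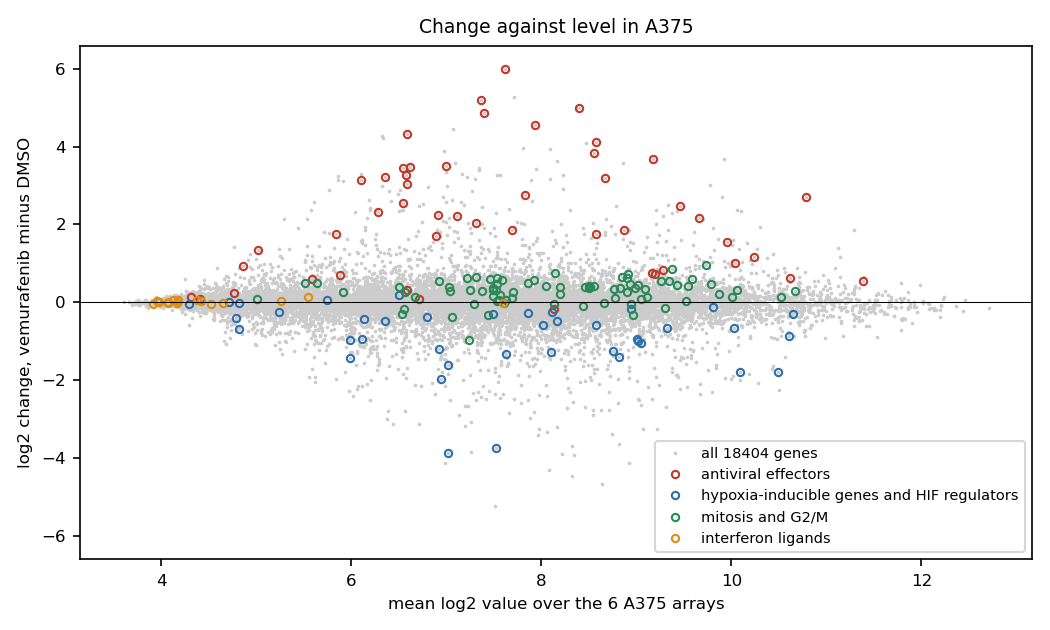
Log2 change, vemurafenib minus DMSO (vertical axis), against the mean log2 value over the 6 A375 arrays (horizontal axis) for all 18404 genes in grey, with 4 gene lists in colour. Antiviral effectors lie above 0 over most of the range of levels, hypoxia genes below 0, mitotic genes slightly above 0, and interferon ligands between -0.05 and 0.14.

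The treated arrays were then compared list by list. Over the 356 genes that rose at least 2-fold, the median change against the DMSO mean was 1.48, 1.62 and 1.58 in vemurafenib replicates 1, 2 and 3, and over the 417 that fell at least 2-fold it was -1.46, -1.43 and -1.42. For the antiviral effectors the medians were 2.11, 2.26 and 2.10, and for the hypoxia list -0.73, -0.68 and -0.60. The melanocyte and neural crest factors had medians of 0.21, -0.016 and -0.074, and potassium channels 0.15, -0.037 and -0.025. In 403 genes replicate 1 lay over 0.5 from the mean of the other treated arrays, 244 above and 159 below. RAC1, a GTPase of the cytoskeleton, read 5.99 in replicate 1 against 7.67 and 7.60 in the others; its call (-0.98 ± 0.34, adjusted p = 0.0392) became -0.43 (adjusted p = 0.0217) without that array. IDO1, a tryptophan-degrading enzyme that interferon gamma induces, read 6.13 in replicate 1 against 6.95 and 7.24, all above the DMSO arrays at 4.36 to 4.42.

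**Figure D5:**
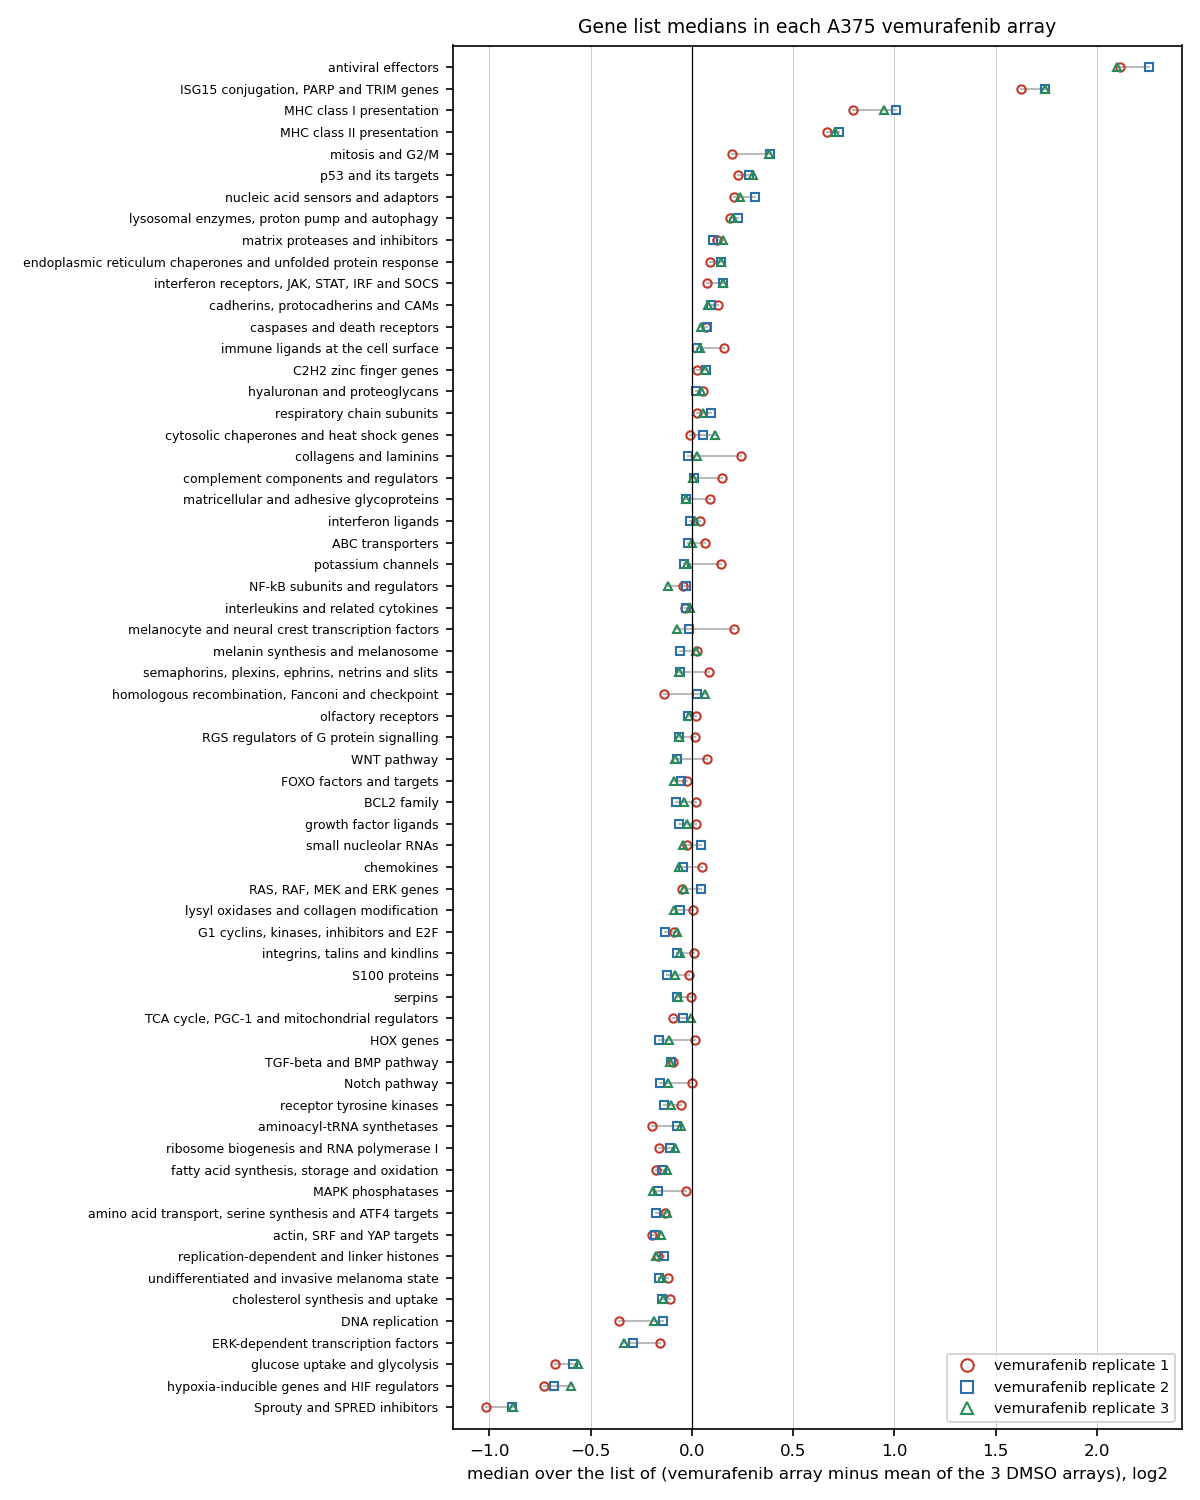
Median over each gene list of the log2 difference between an A375 vemurafenib array and the mean of the 3 A375 DMSO arrays (horizontal axis), 1 row per list; red circles are replicate 1, blue squares replicate 2 and green triangles replicate 3. The antiviral list is highest, at 2.10 to 2.26, and the Sprouty list lowest, at -1.02 to -0.88.

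The same fit tested whether the response of A375 differed from that of A2058. It differed for 5434 genes (29.5%), 2416 with a higher and 3018 with a lower change in A375. Among the antiviral effectors 44 of 49 differed. In A2058 their median change was 0.062, with 19 called up and 5 down. Among the class II presentation genes 12 of 13 differed, with a median of -0.40 in A2058, where 1 rose and 10 fell. For the hypoxia list 25 of 40 differed. Its median in A2058 was -0.26, with 25 called down and 4 up there. Over all genes 14.6% were called up and 12.5% down in A2058. EGR1 fell in A375 and was not called in A2058 (difference -2.39 ± 0.091, adjusted p = 9.62e-10). DUSP16 (difference 0.02 ± 0.069) and MITF (0.00 ± 0.066) were raised in both lines and the test of the difference was not passed.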

How the data were processed

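Total RNA of 12 samples was labelled and hybridised, 1 array each, in 4 groups of 3 taken from the sample titles. Each array has 1 log2 value per probe set in the table that the authors deposited. The submitters' processing notes name R 3.0.1 and the affy package; how background was corrected and probes summarised is not stated there. The scale was read from the values (3.24 to 13.08). How the unstated normalization affects a change shared by all genes, or low signals, was not tested. Precision is limited by the 3 arrays of a group, as intensities carry no depth.

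Of 32321 probe sets, 19158 had 1 gene symbol, 1388 several and 11775 none in the platform annotation; symbols were updated by Entrez number through RefSeq (GRCh38.p14), which matched 19128. Of several probe sets for a gene (637 genes) the brightest over 12 arrays was kept. No array was a copy of another. Group means were fitted to all 12 arrays with limma 3.58.1 in R 4.3.3 (lmFit, contrasts.fit, eBayes; 8 residual and 3.98 prior degrees of freedom), with Benjamini-Hochberg adjustment over 18404 genes and tests of both directions. Lists are described by counts and medians, with no test of a list. In data simulated for the A375 contrast on 18404 genes, 50 genes were changed by each of 0.25, 0.5, 1 and 2. Of these, 40%, 90%, 100% and 100% were recovered, with 6 false calls among 171. The simulation gave every group the same spread per gene. In the real arrays the median standard deviation was 0.0866 in A375 vemurafenib and 0.0461 in A375 DMSO. The simulation also held no outlying array and far fewer changed genes, so its rates may not hold for the real contrast.

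The part described, the gene lists and the rule for named genes were chosen with earlier results of these data known. The rule names, among called genes whose groups do not overlap, the 15 largest rises and falls, up to 4 of each per list, DUSP6, SPRY4, ETV5, CCND1, MKI67, MITF and SOX10, list members not called or moving against the rest where these number 5 or fewer, and the 10 genes at which vemurafenib replicate 1 lay highest and lowest. CGAS, TLR3, PFKFB3, PFKFB4, IFNB1, IFNL1, TYR, PMEL, MLANA, PTPRC, HIF1A, EPAS1, BCL2L11 and the search without a match before 3 genes were chosen after their values were seen. Same-numbered DMSO and vemurafenib arrays of A375 had deviations from their group means that correlated at -0.197, 0.1 and -0.128, so the replicate numbers were not taken as pairs. Alternatives left out each array, weighted arrays or groups, changed the normalization, the filter, the probe set rule and the prior, added the replicate block, or used the A375 arrays alone; the last without vemurafenib replicate 1 was added after seeing the data.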

Additional observations from a re-analysis of the deposited data

Results flagged for a closer look

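Among the 30 largest changes of A375, each response differed from that of A2058 in the test of the difference (adjusted p under 0.05 in limma). These genes were picked for the size of their A375 change, which favours a difference, and over all genes 29.5% differed. Values are the A375 change minus the A2058 change on the log2 scale. For the interferon-stimulated genes the differences were 5.72 for IFIT1, 5.22 for XAF1, 4.91 for OAS2, 4.88 for IFI44L, 4.15 for MX1, 4.49 for RSAD2, 4.14 for OAS1, 3.52 for HERC6 and 3.96 for RIGI. The modifier gene UBD differed by 4.40. Among the other large rises the difference was 4.90 for C1S, 5.64 for TCN1, which binds vitamin B12, 3.95 for ANGPTL7, 3.39 for CD36 and 4.24 for TAC1, the precursor of substance P.

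Among the falls, the largest differences were those of SYTL5 (-5.04), LOXL4 (-4.77), FERMT1 (-3.74), HAPLN1 (-3.68), IL1A (-3.55), TINAGL1 (-3.40), the orphan receptor GPRC5A (-2.95) and ANGPTL4 (-2.63). Of these 8 genes TINAGL1 and ANGPTL4 fell at least 2-fold in A2058 as well. The other 7 of the 15 largest falls also fell at least 2-fold in A2058: INHBA differed by -1.98, STC1 by -1.72, CEMIP by -1.40, the mitochondrial adenylate kinase AK4 by -1.23, SPRY4 by -0.91, NT5E by -0.69 and IGFBP3 by -0.34.

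Further named genes moved in opposite directions by at least 0.5 in each line, with both changes called. They were higher in A375 with vemurafenib and lower in A2058 for MMP1 (difference 4.47), DKK1 (4.38), TNFSF13B (3.03), HLA-DMB (2.89), THBS1 (2.62), VCAN (2.61), IL7R (2.53), PCDH17 (1.99), FABP7 (1.81), HLA-DMA (1.73), CCL2 (1.70), ITGB8 (1.67), TPM1 (1.48) and TGFBR3 (1.20). The opposite held for FBXO32 (-3.58), BOK (-1.45) and MYO5A (-1.22). Gaps between single arrays were not tested in groups of 3; in the weights limma estimates per array, vemurafenib replicate 1 of A375 had 0.149 and the other 11 arrays 0.672 to 2.065.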

How the results depend on the processing

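Over 22 alternatives the number of genes called in A375 ran from 6020 to 8127 around 6816, the number changed at least 2-fold from 762 to 794 around 773, and the genes whose response differed between lines from 4892 to 6953 around 5434. Leaving out 1 array gave 6044 to 7785 called genes. The counts in the main direction (rises or falls, whichever were more) of the antiviral, ISG15, sensor, class I, class II, mitosis, replication, histone, glycolysis, hypoxia, lysosome, adhesion molecule, actin and ERK factor lists all stayed within 1.5 times of their values under every alternative; for instance 42 to 45 antiviral effectors were called up. None of the 459 called genes that the naming rule covers changed direction. For genes chosen because their groups do not overlap, leaving out an array could not turn the direction. List members not called and genes named only for vemurafenib replicate 1 were not among the 459. The call was lost under at least 1 alternative for 20 of the 459, none with a change over 0.38. Among the other counts of lists, opposite directions included, 142 of 2684 moved by more than 1.5 times. With the replicate block, 6431 genes were called. Quantile normalization put the median change of all genes at 0.002 and median centring at -0.002. Signals near the floor, such as those of pigment genes and interferon ligands, limit what can be seen.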
